A study of Mus musculus with 10 samples.

Results

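The PI3K, Akt and FoxO pathway genes described here are 39 named genes: 3 FoxO transcription factors, 4 genes of the insulin receptor and its adaptors, 4 catalytic and 4 regulatory PI3K genes, 6 kinases and mTOR complex subunits, 7 brakes on the pathway, and 11 genes known as FoxO targets. They were chosen by name, with earlier results of these data known, out of 42520 genes that could be joined over all tables. Of those, 19885 had enough counts to be tested. All 39 passed that filter, 29 of them with a mean of at least 10 CPM over the plates and 10 below it. CPM is a gene's count relative to the total count of its sample, with a scaling factor (TMM) in the sums of whole plates.

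Lymphatic endothelial cells (LECs) of mouse ear skin were sorted on CD31 and podoplanin into 8 plates, 1 cell per well, and sequenced by Smart-seq, which reads along whole transcripts. The plates came from 4 genotypes with 2 plates each: Tie1fl/fl Cre- (plates 1 and 2), Tie1fl/fl Tie2fl/fl Cre- (plates 3 and 4), Prox1CreERT2 Tie1fl/fl, called Tie1-deleted (plates 1 and 2), and Prox1CreERT2 Tie1fl/fl Tie2fl/fl, called Tie1/-2-deleted (plates 1 and 2). All pups, Cre- ones included, were given 4-hydroxytamoxifen (62.5 µg daily, P1 to P5), which activates a Cre recombinase driven by the lymphatic gene Prox1. These are the days of dosing, and the paper places the sampling of these LECs at a later age. Plate 1 of the Tie1fl/fl Cre- and of the Tie1-deleted LECs came from females and the other plates from males. In a second experiment, cells of wild-type C57BL/6J male pups were sorted on CD31 and measured by droplet sequencing (10x) in 1 library of pups treated with IgG and 1 library of pups treated with an Ang2-blocking antibody (Ang2 Ab). Both were dosed at 20 mg/kg between P16 and P21. How many mice stand behind a plate or a library is not given in the sources used here. Each plate therefore counts as 1 sample, and the p-values reflect plate-to-plate spread, which may be technical.

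Angiopoietins signal through the receptor Tie2 and its partner Tie1. Receptor activation recruits PI3K, whose lipid product brings Akt to the membrane, where PDK1 and the mTORC2 complex phosphorylate it. Active Akt phosphorylates the FoxO factors, which then leave the nucleus, so that their target genes are transcribed less. Akt and FoxO activity is thus set largely by phosphorylation and localization, neither of which is measured by RNA.

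For 35 of the 39 genes, the 250 bases before 1 or more transcript starts were at hand (51 windows, RefSeq, GRCm38.p6). Foxo4, Trp53inp1, Fbxo32, and Insr had no window and were not searched. The letters GTAAACA, a core that forkhead factors can bind, were searched on both strands, and 3.17% of 32851 such windows of all genes held them. Among the 35 genes, those with a match were Akt1, Bcl2l11, Pik3cg, and Txnip, and neither of 2 Sesn1 windows had one. This list is by gene, and some genes have more than 1 window, so it cannot be set against the share of windows. Txnip, Bcl2l11, and Akt1 are shown because their deleted plates lay on 1 side of the Cre- plates in both strains below. Gab1, Pik3ip1, Inpp4b, Phlpp1, and Sesn1 were alike in this but had no match. Each window is written 5′ to 3′ on the strand of the gene with the match in capitals. The Txnip window lies at chr3:96557707-96557956 (+ strand), the Bcl2l11 window at chr2:128125788-128126037 (+ strand), and the Akt1 window at chr12:112674885-112675134 (- strand), where the match is on the opposite strand and so reads TGTTTAC.
Txnip: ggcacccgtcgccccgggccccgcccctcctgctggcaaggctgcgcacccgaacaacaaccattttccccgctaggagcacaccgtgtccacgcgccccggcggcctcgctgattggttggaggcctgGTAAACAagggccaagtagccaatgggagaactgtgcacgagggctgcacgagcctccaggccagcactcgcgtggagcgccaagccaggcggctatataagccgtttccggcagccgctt
Bcl2l11: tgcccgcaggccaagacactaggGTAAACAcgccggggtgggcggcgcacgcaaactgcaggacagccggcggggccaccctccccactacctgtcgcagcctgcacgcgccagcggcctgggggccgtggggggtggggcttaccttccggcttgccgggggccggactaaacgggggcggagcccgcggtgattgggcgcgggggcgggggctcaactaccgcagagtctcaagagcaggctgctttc
Akt1: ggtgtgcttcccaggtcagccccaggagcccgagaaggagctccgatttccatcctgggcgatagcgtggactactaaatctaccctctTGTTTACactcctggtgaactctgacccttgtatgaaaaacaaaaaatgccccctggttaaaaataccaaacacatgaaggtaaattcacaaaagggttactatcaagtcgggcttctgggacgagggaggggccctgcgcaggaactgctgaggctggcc
The matches start 121, 227, and 161 bases before the transcript starts of Txnip, Bcl2l11, and Akt1. A match describes letters and does not show that a factor binds there.

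Clustering left 2692 LEC wells of 3026, 294 to 359 per plate, with 63710799 to 100960418 counts per plate. The levels of the deleted genes matched the labels. Tie1 was at 2230 to 2883 CPM in the 4 Cre- plates, 662 and 655 CPM in the Tie1-deleted plates, and 740 and 458 CPM in the Tie1/-2-deleted plates, and Tek, which encodes Tie2, was at 219 to 344, 218 and 249, and 31.9 and 53.7 CPM. The summed level of 8 LEC markers was 8145 to 9915 CPM in Cre- and 8554 to 9311 CPM in Cre+ plates. The 6 mural cell markers together were at 9.58 to 67.7 CPM in Cre- and 47.4 to 164.7 CPM in Cre+ plates, and 6 keratinocyte markers at 13.9 to 52.8 and 9.59 to 13.3 CPM. The 6 immune markers were at 3.02 to 9.70 CPM in Cre- and 13.3 to 20.4 CPM in Cre+ plates, with every Cre+ plate above every Cre- plate. Their part in the results was not tested.

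In LECs of the 4 Cre- plates, levels corrected for transcript length (TPM, mean ± SD, n = 4 plates) ranged widely. Txnip, which encodes a protein that binds thioredoxin and restrains glucose uptake, was the highest at 2533 ± 293 TPM. Sesn1, a stress-induced inhibitor of mTORC1, followed at 169 ± 19.6 TPM and Akt1 at 128 ± 18.1 TPM. The docking protein gene Gab1 (68.1 ± 8.49 TPM), the mTORC1 brake Tsc2 (65.8 ± 8.02 TPM), Foxo1 (59.2 ± 28.4 TPM), and the PI3K regulatory subunit gene Pik3r2 (58.1 ± 8.70 TPM) came next and did not differ from each other beyond their spread. At the low end, Irs2, Sesn3, Irs1, and Bcl6 were each below 1 TPM (0.936, 0.540, 0.377, and 0.359 TPM).

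Within families the order in the plates was plain for most. For some PI3K genes the IgG droplet library gave another order, described at the end. Foxo1 was above Foxo3 (15.2 ± 2.77 TPM), which was above Foxo4 (1.33 ± 0.880 TPM). Akt1 was above Akt2 (25.2 ± 4.90 TPM). Among the catalytic subunits, Pik3ca, which encodes p110α, was the highest at 13.4 ± 1.29 TPM, whereas Pik3cg (4.18 ± 1.84 TPM) and Pik3cd (4.05 ± 3.03 TPM) overlapped and Pik3cb was at 1.04 ± 1.05 TPM. Of the regulatory genes, Pik3r2 had a higher mean than Pik3ip1 (37.6 ± 13.8 TPM), an inhibitor of the catalytic subunit, but their mean ± SD ranges overlapped, and Pik3r1 (11.2 ± 4.00 TPM) and Pik3r3 (11.2 ± 4.13 TPM) were alike. The spread between Cre- plates also differed by gene: the coefficient of variation was 3.84% for Mtor and 44.7% for Foxo1, with a median of 20.4% over the 29 pathway genes of at least 10 CPM and 20.9% over all 9784 genes of that level.

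**Figure D1:**
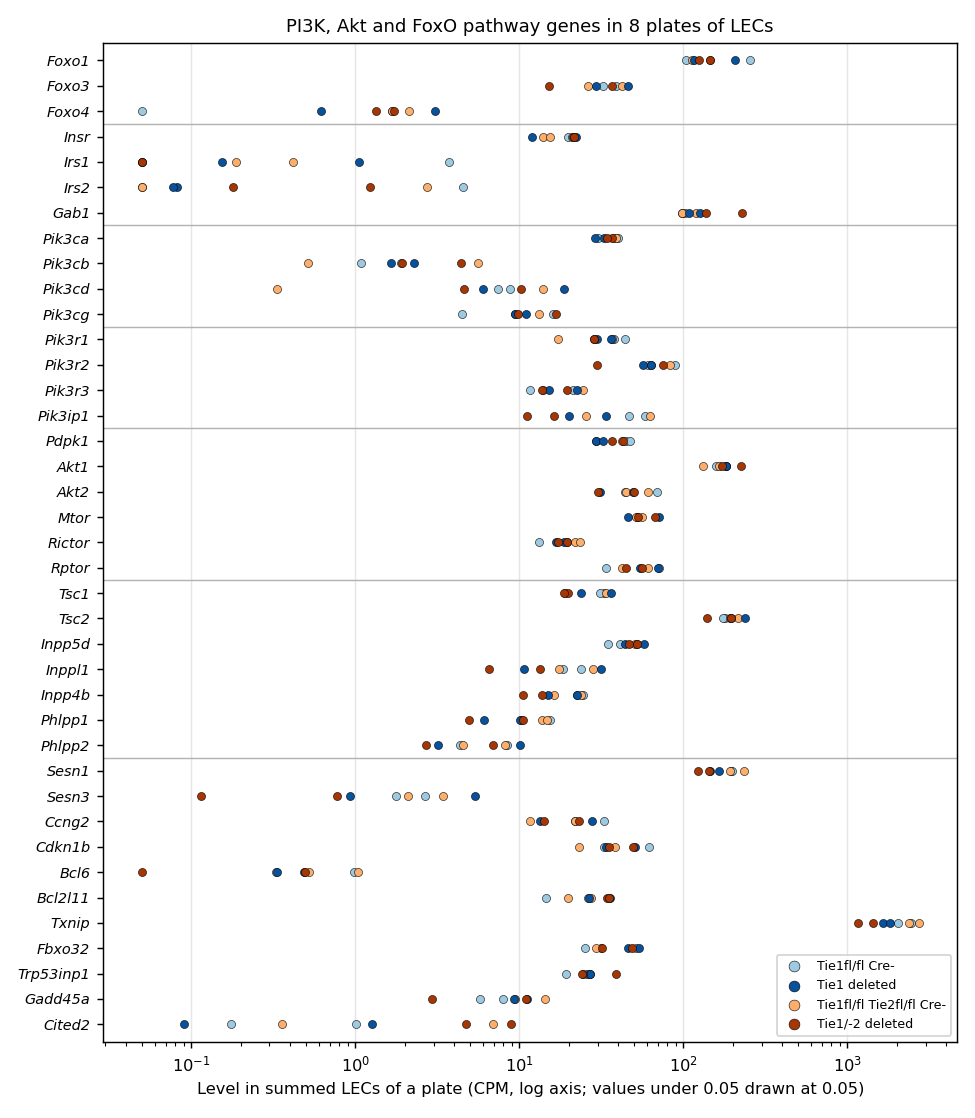
Level of each of the 39 genes in the summed LECs of each of the 8 plates (CPM, log axis; values under 0.05 CPM are drawn at 0.05), 1 point per plate, colored by genotype and grouped by role. Txnip lies apart at 1166 to 2717 CPM, and the plates of a genotype scatter widely for genes below about 10 CPM.

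The first comparison asked which pathway transcripts differed after deletion of Tie1. By edgeR's quasi-likelihood test, 0 of the 39 genes passed an adjusted p of 0.05, and 0% of all 19885 genes did. At an unadjusted p of 0.05, 0 of the 39 and 4.27% of all genes passed. DESeq2, with its own adjusted p, called 0 of the 39 and 0.913% of all genes. Tie1 itself, at a log2 fold change of -1.96, had an edgeR adjusted p of 0.26. The deleted gene was thus itself not called in this comparison, which had 2 plates per genotype. Of the 39 fold changes, 19 were positive and 20 negative, with a median log2 of -0.0049, against 0 over all genes. In 6 genes both deleted plates lay above both Cre- plates (15.5% of all genes did), and in 7 they lay below (13.5%).

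After deletion of both receptors, again 0 of the 39 genes were called by edgeR at an adjusted p of 0.05, where 1.16% of all genes were (231 of 19885). At an unadjusted p of 0.05, 5 of the 39 passed (10.7% of all genes), 4 of them lower (7.06% of all genes) and Gab1 higher (3.67% of all genes). Of the 4 lower ones, 1 was a receptor or adaptor gene. The negative fold changes in that group were those of Irs1 and Irs2, both barely detected. The median log2 fold change of the 39 was -0.21, with 16 positive and 23 negative, against 0 over all genes. The deleted plates lay above the Cre- plates in 5 genes (16.3% of all genes) and below in 11 (20.9%). In the test of the difference between the deletions, 0 of the 39 passed an edgeR adjusted p of 0.05 and 0.141% of all genes did, and 1 of the 39, Txnip, passed at an unadjusted p of 0.05, where 7.48% of all genes did. DESeq2 called 0 of the 39 and 2.47% of all genes for this difference.

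**Figure D2:**
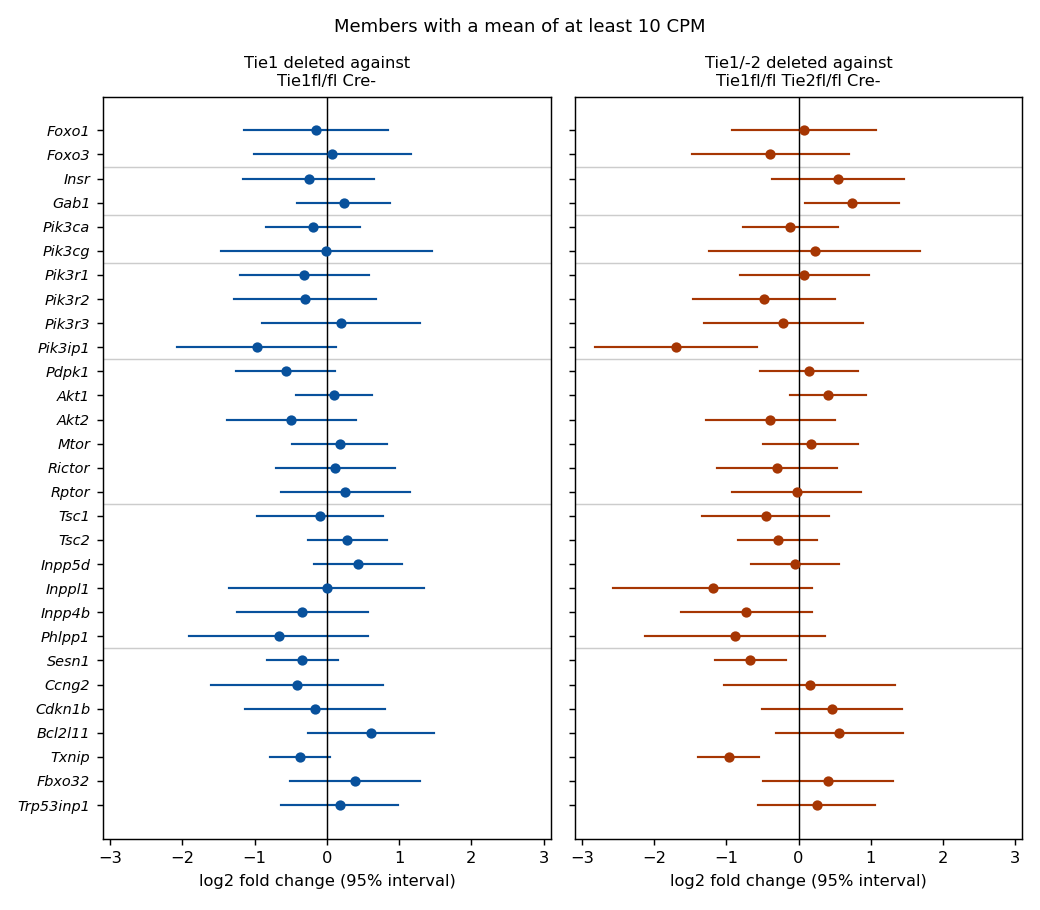
Log2 fold change with its 95% interval from edgeR for the 29 genes of at least 10 CPM, in Tie1 deletion (left) and Tie1/-2 deletion (right). Most intervals cross 0, and Txnip, Pik3ip1, Sesn1, and Gab1 in the right panel lie to one side of it without passing the adjusted threshold.

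The FoxO targets held the gene nearest to a call. Txnip reached 2045 and 2454 CPM in Tie1fl/fl Cre- plates, compared with 1651 and 1813 CPM after Tie1 deletion. In the other strain the Cre- plates held 2717 and 2373 CPM and the Tie1/-2-deleted plates 1436 and 1166 CPM. Every Cre+ plate lay below every Cre- plate. The log2 fold change was -0.38 (SE 0.18, edgeR adjusted p = 1) with Tie1 deletion and -0.97 (SE 0.18, edgeR adjusted p = 0.054) with Tie1/-2 deletion, which is 0.511-fold with a 95% interval of 0.382 to 0.683. Tie1/-2 deletion differed from Tie1 deletion by a log2 of -0.59 (edgeR unadjusted p = 0.049, adjusted p = 0.66), and the average of both was -0.67 (edgeR adjusted p = 0.063, where 0.93% of all genes passed 0.05). Some other ways of testing did call Txnip in Tie1/-2 deletion: DESeq2 (adjusted p = 0.0057, with 5.73% of genes called), edgeR with the layout of the deposited table as a term (adjusted p = 0.013, 1.21% called), and limma on the mean CPM per cell (adjusted p = 0.0019, 3.15% called). Others did not. With no cluster of wells removed, edgeR called 0 of the 39 and 221 of 20457 genes. With finer clustering it called 0 of the 39 and 215 of 20279 genes. Leaving out 1 plate at a time gave log2 fold changes of -1.16 to -0.83. Within each layout, the ratio of the deleted to the Cre- plate was 0.807 and 0.739 for Tie1 and 0.529 and 0.491 for Tie1/-2 deletion.

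Sesn1, chosen for description after its values were seen, showed a like order at a lower level. Its plates were at 194.3 and 197.6 CPM (Tie1fl/fl Cre-), 145.0 and 164.6 CPM (Tie1-deleted), 232.9 and 191.2 CPM (Tie1fl/fl Tie2fl/fl Cre-), and 143.9 and 122.7 CPM (Tie1/-2-deleted). The 4 Cre+ plates lay below the 4 Cre- plates here too, which held for 2 of the 39 genes, Txnip and Sesn1, both lower, where 2.25% of all genes were lower in this way. The log2 fold change was -0.34 (SE 0.21, edgeR adjusted p = 1) in Tie1 deletion and -0.67 (SE 0.21, edgeR adjusted p = 0.30) in Tie1/-2 deletion. In the capillary-like class alone its fold change in Tie1 deletion turned to 0.34 on the log2 scale (edgeR adjusted p = 0.97), and in collector-like wells of the Tie1fl/fl Tie2fl/fl strain the plates overlapped, at 187.6 and 316.4 CPM after deletion against 238.3 and 224.4 CPM.

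Bcl2l11, which encodes the proapoptotic protein BIM, went the other way. It was at 26.2 and 14.6 CPM in the Tie1fl/fl Cre- plates against 26.7 and 35.6 CPM in the Tie1-deleted plates, and at 27.2 and 19.8 CPM in the Tie1fl/fl Tie2fl/fl Cre- plates against 34.2 and 35.3 CPM in the Tie1/-2-deleted plates. Within each strain the deleted plates were the higher ones, by a narrow margin for the first pair. The log2 fold changes were 0.61 (SE 0.38) and 0.56 (SE 0.38), with edgeR adjusted p = 1 and 0.69. Fbxo32, a muscle atrophy ubiquitin ligase gene and a classic FoxO target, was at 25.1 and 51.2 against 53.9 and 45.7 CPM in the Tie1fl/fl strain, where the plates overlapped, and at 31.6 and 29.2 against 48.7 and 32.1 CPM in the Tie1fl/fl Tie2fl/fl strain, with edgeR adjusted p = 1 and 0.83.

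Of the other FoxO targets, the cell cycle inhibitor gene Cdkn1b (fold 0.892 and 1.38 in the 2 deletions), Ccng2 (0.749 and 1.11), and Trp53inp1 (1.13 and 1.19) had overlapping plates in both comparisons. Gadd45a was at 2.92 to 14.3 CPM with fold changes of 1.49 and 0.588. Sesn3 was at 0.115 and 0.772 CPM in the Tie1/-2-deleted plates and 3.45 and 2.11 CPM in their Cre- plates, which did not overlap (edgeR adjusted p = 0.49). Bcl6 and Cited2 were at 0.0493 to 1.04 CPM and 0.0902 to 8.87 CPM. Over the 11 targets, Tie1/-2 deletion gave 6 positive and 5 negative fold changes, with a median log2 of 0.15, so the targets did not share a direction.

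The FoxO factor transcripts themselves showed no steady difference. Foxo1 was at 253.3 and 103.8 CPM (Tie1fl/fl Cre-), 205.5 and 115.6 CPM (Tie1-deleted), 112.4 and 145.8 CPM (Tie1fl/fl Tie2fl/fl Cre-), and 146.0 and 125.4 CPM (Tie1/-2-deleted). The female plates of the Tie1fl/fl strain, which are also the plates of 1 table layout, were the high ones in that strain. The log2 fold changes of Foxo1 were -0.15 (95% interval -1.15 to 0.84) and 0.07 (-0.92 to 1.07). Foxo3 was at 32.4 and 39.04, 29.4 and 46.0, 26.2 and 42.1, and 36.9 and 15.2 CPM in the same order of genotypes, with log2 fold changes of 0.08 (-1.01 to 1.16) and -0.39 (-1.48 to 0.70). Foxo4 stayed between 0.0413 and 3.08 CPM.

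At the receptor end of the pathway, Gab1 had the highest fold change among the genes of at least 10 CPM in Tie1/-2 deletion, without passing the adjusted threshold. It was at 102.3 and 97.9 CPM (Tie1fl/fl Cre-), 108.3 and 127.0 CPM (Tie1-deleted), 119.6 and 98.6 CPM (Tie1fl/fl Tie2fl/fl Cre-), and 227.0 and 137.4 CPM (Tie1/-2-deleted). The Tie1/-2-deleted plates were both above their Cre- plates but far apart from each other. The log2 fold change was 0.74 (SE 0.28, edgeR adjusted p = 0.40), and it was 0.30 without Tie1/-2-deleted plate 1. Insr, the insulin receptor gene, was at 19.8 and 20.8 against 11.95 and 22.1 CPM in the Tie1fl/fl strain and at 13.9 and 15.4 against 21.4 and 21.6 CPM in the other (log2 0.55, SE 0.40, edgeR adjusted p = 0.73). In capillary-like wells Insr had the opposite direction in Tie1/-2 deletion, at 6.80 and 17.8 CPM in the deleted plates against 30.6 and 29.4 CPM. For Tie1 deletion the deleted plates were lower there, at 0.790 and 19.8 CPM against 44.7 and 41.1 CPM. In the summed LECs of that strain the mean was also lower after deletion (17.0 against 20.3 CPM), with overlapping plates. The insulin receptor substrate genes were barely detected: Irs2 was at 0.0312 to 4.57 CPM over the 8 plates, and Irs1 at 0.0437 to 3.73 CPM in 6 plates and at 0 counts in both Tie1/-2-deleted plates, with counts in 2.23% of all LEC wells.

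Pik3ip1 was the gene of at least 10 CPM with the lowest fold change in both deletions, again short of the threshold. It was at 58.5 and 46.5 CPM (Tie1fl/fl Cre-) against 20.1 and 33.5 CPM (Tie1-deleted), and at 62.9 and 25.6 CPM (Tie1fl/fl Tie2fl/fl Cre-) against 11.2 and 16.2 CPM (Tie1/-2-deleted). Within each strain the deleted plates were the lower ones. Its log2 fold change was -0.97 (SE 0.48, edgeR adjusted p = 1) and -1.69 (SE 0.49, edgeR adjusted p = 0.23). Over the other fits tried, it ranged from -1.39 to -0.08 in Tie1 deletion and from -2.62 to -0.91 in Tie1/-2 deletion. The value of -0.91 came without Tie1fl/fl Tie2fl/fl Cre- plate 3. DESeq2 called the Tie1/-2 difference (adjusted p = 0.017), as it did Txnip. These were the 2 of the 39 genes that it called in that comparison, where it called 5.73% of all genes. Pik3r1, which encodes the p85α subunit, was at 44.3 and 37.9 against 36.4 and 29.8 CPM and at 37.0 and 17.2 against 28.7 and 28.7 CPM in the 2 strains, with log2 fold changes of -0.31 (SE 0.39) and 0.08 (SE 0.39). Pik3r2 and Pik3r3 had fold changes of 0.811 and 1.15 in Tie1 deletion and 0.718 and 0.865 in Tie1/-2 deletion, with overlapping plates in each.

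Among the catalytic subunits, Pik3ca was measured with the narrowest intervals. It was at 30.3 and 40.2 CPM (Tie1fl/fl Cre-), 28.8 and 32.9 CPM (Tie1-deleted), 37.9 and 39.01 CPM (Tie1fl/fl Tie2fl/fl Cre-), and 36.8 and 34.4 CPM (Tie1/-2-deleted). The Tie1/-2-deleted plates were below their Cre- plates by a narrow margin. The log2 fold changes were -0.19 (95% interval -0.85 to 0.46) and -0.11 (-0.76 to 0.54). Pik3cg, at 4.47 to 16.6 CPM, had fold changes of 0.994 and 1.17, and Pik3cb and Pik3cd were mostly under 10 CPM, with overlapping plates in each comparison.

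The kinases showed small differences. Akt1 was at 180.8 and 158.8 CPM (Tie1fl/fl Cre-), 181.6 and 183.1 CPM (Tie1-deleted), 131.9 and 165.4 CPM (Tie1fl/fl Tie2fl/fl Cre-), and 223.4 and 172.4 CPM (Tie1/-2-deleted). The deleted plates were above the Cre- plates within each strain, by less than 1 CPM at the nearest in the Tie1fl/fl strain. The log2 fold changes were 0.10 (SE 0.23) and 0.41 (SE 0.23), with edgeR adjusted p = 1 and 0.60. Pdpk1, which encodes PDK1, was at 44.6 and 47.0 CPM in the Tie1fl/fl Cre- plates and 29.2 and 32.5 CPM in the Tie1-deleted plates (log2 -0.57, SE 0.30, edgeR adjusted p = 1), but at 29.2 and 42.4 against 36.5 and 42.9 CPM in the other strain (log2 0.15, SE 0.30). Akt2 (fold 0.712 and 0.763), Mtor (1.13 and 1.12), Rictor (1.08 and 0.813), and Rptor (1.19 and 0.981) were not called either.

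All 7 brakes had a negative fold change in Tie1/-2 deletion, where 9926 of 19885 genes did, and none was called by edgeR. Inppl1, which encodes the lipid phosphatase SHIP2, was at 28.0 and 17.6 CPM in the Cre- plates and 13.4 and 6.54 CPM in the deleted plates (log2 -1.19, SE 0.60, edgeR adjusted p = 0.55), whereas in the Tie1fl/fl strain its plates overlapped (18.5 and 23.9 against 10.7 and 31.6 CPM). Phlpp1, an Akt phosphatase gene, was lower in the deleted plates of both strains, at 10.3 and 15.5 against 6.12 and 10.1 CPM and at 13.7 and 14.8 against 10.55 and 4.97 CPM, with log2 fold changes of -0.67 (SE 0.54) and -0.88 (SE 0.54). Inpp5d, which encodes SHIP1, was at 40.9 and 34.7 against 44.4 and 57.5 CPM in the Tie1fl/fl strain (log2 0.43, SE 0.27) and at 50.5 and 52.1 against 52.5 and 46.4 CPM in the other. In Tie1/-2 deletion the fold was 0.606 for Inpp4b, 0.729 for Tsc1, 0.817 for Tsc2, and 0.753 for Phlpp2. The median log2 of the 7 was -0.46 in Tie1/-2 and -0.0049 in Tie1 deletion. In Tie1/-2 deletion the deleted plates lay below the Cre- plates in 3 of the 7 (20.9% of all genes did). In LECs of the droplet libraries the ratios of Ang2 Ab to IgG went the other way. All 7 were above 1, from 1.06 (Tsc1) to 1.22 (Phlpp2), with 95% intervals for counting error that include 1.

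Counted over both strains, 8 of the 39 genes had deleted plates that did not overlap the Cre- plates in either strain and lay on the same side in both: Gab1, Akt1, and Bcl2l11 higher, and Pik3ip1, Inpp4b, Phlpp1, Sesn1, and Txnip lower. All 8 were among the 29 genes of at least 10 CPM. The same held for 7.4% of all genes and for 8.67% of those of at least 10 CPM. The Tie1fl/fl and Tie1fl/fl Tie2fl/fl comparisons share no plates. For Akt1 and Bcl2l11 the order of the nearest plates in the Tie1fl/fl strain rested on the TMM factors. These were 1.06 for Cre- plate 1 and 1.03 for Tie1-deleted plate 1, and without them these 2 genes overlap in that strain.

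**Figure D3:**
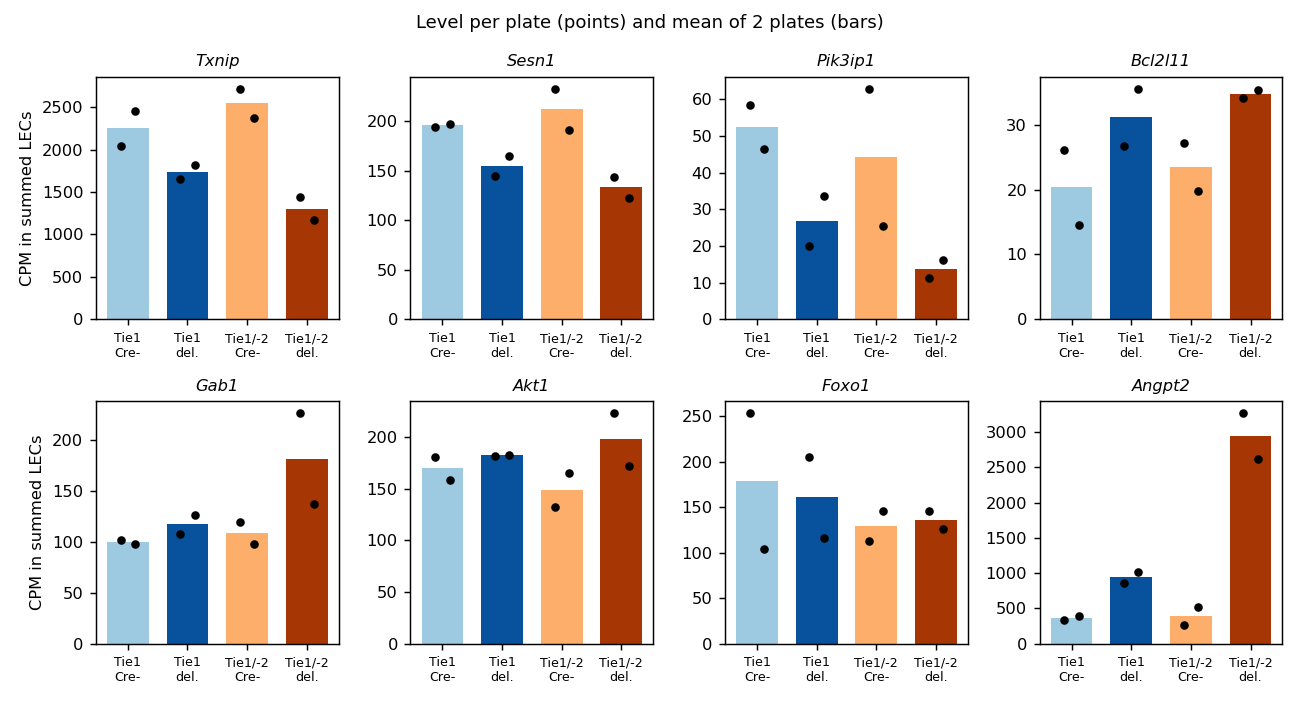
Level per plate (points) and mean of 2 plates (bars), in CPM from 0, for 7 pathway genes and Angpt2 in the 4 genotypes. Txnip and Sesn1 are lower in each Cre+ plate than in each Cre- plate, Foxo1 overlaps throughout, and Angpt2 rises to 3272 and 2616 CPM in the Tie1/-2-deleted plates.

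Angpt2, which encodes Ang2 and is the FoxO1 target that the study followed, gives a scale for these differences. It was at 342.0 and 392.3 CPM (Tie1fl/fl Cre-), 868.3 and 1021 CPM (Tie1-deleted), 262.2 and 516.9 CPM (Tie1fl/fl Tie2fl/fl Cre-), and 3272 and 2616 CPM (Tie1/-2-deleted). The log2 fold change was 1.36 (SE 0.31, edgeR adjusted p = 0.93) in Tie1 deletion and 2.92 (SE 0.33, edgeR adjusted p = 0.0052) in Tie1/-2 deletion. It was the 1 called gene among 23 tested FoxO targets outside the 39, of which 10 had positive and 13 negative fold changes in Tie1/-2 deletion. Among 30 other PI3K-Akt pathway genes, 12 were positive and 18 negative, and 1 was called: Prr5, a subunit of mTORC2, rose from 26.1 and 27.6 CPM to 79.5 and 76.8 CPM (log2 1.54, SE 0.26, edgeR adjusted p = 0.032). It was at 43.9 and 38.2 against 67.8 and 53.7 CPM in the Tie1fl/fl strain. The Tie1/-2 call of Prr5 was lost when any 1 of the 8 plates was left out (edgeR adjusted p = 0.058 to 0.28), with a log2 fold change of 1.48 to 1.58.

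LECs are not uniform, and the mix of classes differed between genotypes. Collector-like wells made up 16.3% and 20.0% (Tie1fl/fl Cre-), 13.9% and 14.2% (Tie1-deleted), 21.6% and 20.2% (Tie1fl/fl Tie2fl/fl Cre-), and 5.73% and 4.62% (Tie1/-2-deleted) of the LECs of a plate, and capillary-like wells 6.46% and 8.24%, 12.1% and 14.8%, 10.8% and 12.4%, and 16.6% and 17.1%. In summed counts, fewer wells of a class and less RNA of a gene per cell cannot be told apart. Between 47.7% and 58.2% of the LEC wells of a plate fell in no named class, and the collector-like values of the Tie1/-2-deleted plates rest on 20 and 16 wells. The classes were found without the 39 genes, and the levels within them are a description, with no test.

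In Cre- plates several pathway genes differed by class. Gab1 was at 243.6 ± 40.5 CPM in valve-like wells (mean ± SD, n = 4 plates) against 81.2 ± 24.05 CPM in capillary-like and 87.8 ± 34.9 CPM in collector-like wells. Pik3ip1 was at 6.24 ± 5.93 CPM in valve-like wells and at 61.8 ± 38.8 and 49.6 ± 27.7 CPM in the other two. Txnip was also lowest in valve-like wells, at 1635 ± 173 CPM against 2633 ± 379 and 2942 ± 278 CPM. The IgG droplet library, an independent experiment, had valve-like LECs at the same end for each of these 3 genes. Gab1 was at 108.3, 42.0, and 30.3 CPM in valve-, capillary-, and collector-like LECs, and Txnip at 505.9, 734.5, and 783.8 CPM. Pik3ip1 was at 3.404, 13.2, and 8.76 CPM, values that rest on few UMIs, with 157 in all IgG LECs together. Insr was at 36.5 ± 7.61 CPM in capillary-like, 15.97 ± 18.6 CPM in collector-like, and 9.93 ± 1.93 CPM in valve-like wells, and there the droplet library differed, with 29.3, 16.01, and 30.9 CPM.

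Within classes, Txnip in Tie1/-2 deletion was at 1452 and 1136 CPM against 2858 and 2863 CPM in capillary-like wells and at 1535 and 1394 CPM against 3342 and 2860 CPM in collector-like wells. In valve-like wells it was at 1399 and 1268 CPM against 1626 and 1393 CPM, where the plates overlapped. In the capillary-like class alone the log2 fold change was -1.18 (SE 0.23, edgeR adjusted p = 0.11). The part of the class mix in the summed difference was not tested. Pik3ip1 was at 2.27 and 20.99 CPM against 112.6 and 19.2 CPM in capillary-like wells, which overlapped. Gab1 was at 155.8 and 172.0 CPM against 106.6 and 75.3 CPM in capillary-like wells and at 208.8 and 95.8 CPM against 68.4 and 64.9 CPM in collector-like wells.

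In capillary-like wells, 5 of the 39 genes had all Cre+ plates on 1 side of all Cre- plates, as did 3.22% of the 19885 genes. Foxo4, Akt1, and Bcl2l11 were the higher ones and Insr and Txnip the lower ones, which was noticed after the values were seen. In this class 14126 genes, 36 of the 39 among them, had enough counts to be tested. The share over 19885 genes is therefore not matched for level. Foxo4 was at 0 to 0.161 CPM and 0.226 to 3.27 CPM, too low to read a difference from. Akt1 was at 103.1 to 176.9 CPM in the Cre- and 178.9 to 250.9 CPM in the Cre+ plates, a narrow gap. Bcl2l11 was at 10.3 and 7.22 CPM (Tie1fl/fl Cre-), 43.6 and 46.7 CPM (Tie1-deleted), 1.55 and 2.30 CPM (Tie1fl/fl Tie2fl/fl Cre-), and 18.5 and 49.9 CPM (Tie1/-2-deleted). With 19 to 59 wells of the class per plate, edgeR on that class alone called none of these: for Bcl2l11 it gave log2 fold changes of 2.31 (SE 1.03, adjusted p = 0.69) and 4.08 (SE 1.12, adjusted p = 0.40), and for Insr -2.10 (SE 1.33, adjusted p = 0.78) and -1.35 (SE 1.30, adjusted p = 0.97). In collector-like wells 3 of the 39 separated in this way (3.29% of all genes), Rptor, Phlpp1, and Txnip, all lower, and in valve-like wells 0 did (2.56%). In capillary-like cells of the droplet libraries Bcl2l11 was at 22.3 CPM with IgG and 23.9 CPM with Ang2 Ab.

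**Figure D4:**
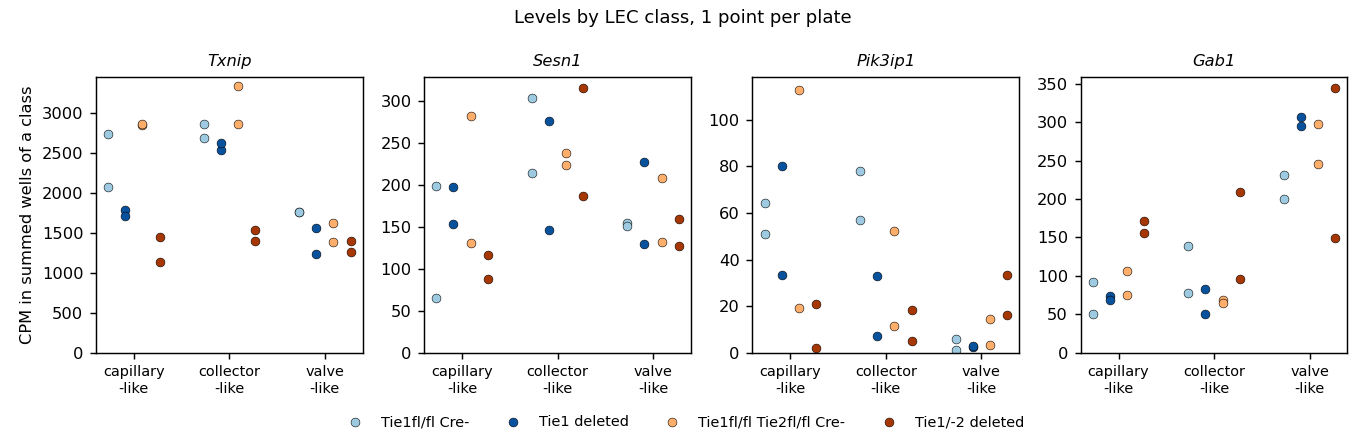
Level of Txnip, Sesn1, Pik3ip1, and Gab1 in capillary-like, collector-like, and valve-like wells, in CPM from 0, 1 point per plate, colored by genotype. The Tie1/-2-deleted plates are the lowest for Txnip in the capillary- and collector-like classes, and Gab1 is highest in valve-like wells.

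The droplet libraries asked what Ang2 blocking did to the same genes. They held 1329 LECs after IgG and 765 after Ang2 Ab, with 18276386 and 9946673 unique molecules (UMIs) and medians of 12309 and 11417 UMIs per LEC. A single library stood for each condition, so nothing was tested, and the exact 95% intervals cover counting error only. Of the 35 pathway genes with at least 100 UMIs, 2 were past 1.5-fold in the Ang2 Ab library, both higher, where 7.14% of 10821 genes were past it in either direction (3.48% higher). The median ratio of the 35 was 1.06, against 1.00 over all these genes. Angpt2 was at 139.0 CPM with IgG and 856.4 CPM with Ang2 Ab, and the 7 collector markers together were at 1114 and 645.1 CPM and the 6 mural markers at 32.0 and 74.3 CPM; collector-like cells were 44.6% and 31.0% of LECs.

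The pair past the fold were Pik3cb, which encodes p110β, at 9.52 and 15.3 CPM (ratio 1.61, 1.28 to 2.01), and Fbxo32, at 17.4 and 27.6 CPM (1.59, 1.35 to 1.87). Both ratios were above 1 in each of the 3 main LEC classes: 1.57, 1.47, and 1.48 for Pik3cb and 1.42, 1.67, and 1.34 for Fbxo32 in capillary-, collector-, and valve-like cells, with under 100 UMIs behind the valve-like value of Pik3cb. Next came Pik3cg (1.42, 0.965 to 2.08), Gab1 at 46.1 and 62.6 CPM (1.36, 1.22 to 1.51), and Phlpp2 (1.22, 0.976 to 1.53). For Gab1 the ratio was 1.30 in capillary-like and 1.52 in collector-like but 1.02 in valve-like cells.

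At the other end, Foxo3 was at 24.1 CPM with IgG and 18.3 CPM with Ang2 Ab (ratio 0.760, 0.636 to 0.905) and Pik3r1 at 51.2 and 39.2 CPM (0.766, 0.679 to 0.863). Txnip was at 685.7 and 572.2 CPM (0.834, 0.809 to 0.861). Its ratio was 0.757 in capillary-like, 0.869 in collector-like, and 1.00 in valve-like cells. Pik3r3 (0.868, 0.708 to 1.06) and Akt2 (0.937, 0.752 to 1.16) had intervals that include 1. In the capillary-like cells alone 4 of 32 genes were past the fold, where 7.78% of genes were: Cited2 (2.04) and Pik3cb higher, and Foxo3 (0.647) and Pik3r1 (0.660) lower. In the collector-like cells 3 of 32 were, all higher, where 7.49% of genes were: Fbxo32, Gab1, and Phlpp1 (1.58). In the valve-like cells it was 1 of 23, Pik3r1 (0.612), where 4.3% of genes were.

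The genes at the center of the pathway differed little between the libraries. Foxo1 was at 158.1 and 153.9 CPM (ratio 0.974, 0.915 to 1.04), Pik3ca at 65.5 and 78.0 CPM (1.19, 1.09 to 1.31), Akt1 at 105.9 and 118.6 CPM (1.12, 1.04 to 1.21), and Pik3ip1 at 8.59 and 8.34 CPM (0.971, 0.735 to 1.27). Sesn1 (0.963, 0.845 to 1.10) and Bcl2l11 (1.16, 0.996 to 1.36) had intervals that include 1. Irs2, with 38 UMIs, Irs1, Pik3cd, and Bcl6 were under the 100 UMI minimum.

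In the blood vascular endothelial-like cells of the same libraries (800 and 795 cells), 0 of 32 pathway genes were past 1.5-fold, where 2.36% of genes were, and Angpt2 was at 57.4 and 100.8 CPM. Txnip was at 598.3 and 652.0 CPM there, a ratio of 1.09 (1.05 to 1.14), and Pik3r1 had a ratio of 1.14 (1.01 to 1.28), both on the other side of 1 from the LECs. Fbxo32 had a ratio of 1.23 (0.956 to 1.59) and Pik3cb 1.10 (0.930 to 1.29). The difference between cell types was not tested.

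**Figure D5:**
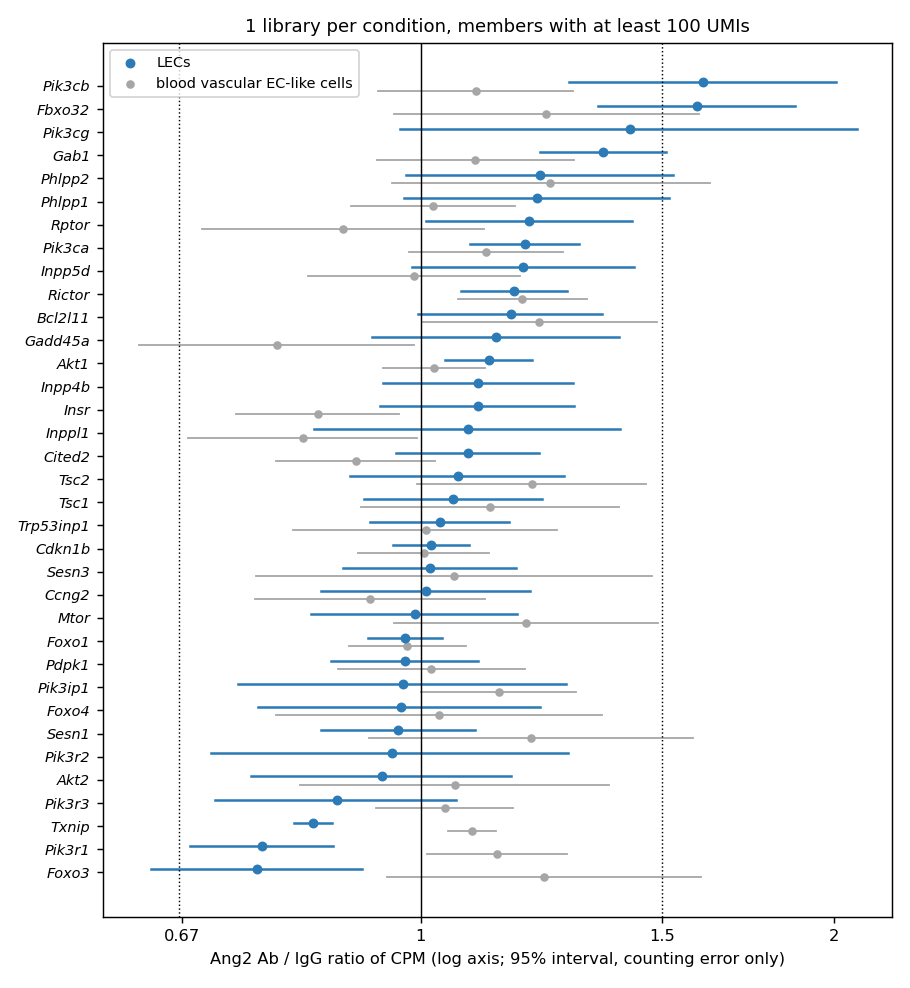
Ratio of Ang2 Ab to IgG (CPM, log axis) for pathway genes with at least 100 UMIs, in LECs (blue) and blood vascular endothelial-like cells (gray), with 95% intervals for counting error. Dotted lines mark 1.5-fold; Pik3cb and Fbxo32 in LECs lie past the upper line, and no gene lies past the lower one.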

How the data were processed

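Smart-seq counts per gene and well and 10x UMI counts per gene and cell were deposited by the authors as raw counts, not normalized. The submitters' processing notes list TopHat2 2.1.1, SAMtools 0.1.18, Subread featureCounts, Cell Ranger 2.1.1, and GRCm38 (the matrix headers give Cell Ranger 6.0.2), and the study's methods state that duplicate reads were removed. The plate tables come in 2 layouts, with symbols or Ensembl IDs as row names, and each genotype has 1 plate of each; 42520 genes with 95.5% to 96.7% of the counts were joined.

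Wells with at least 1000 and cells with at least 500 genes (at most 10% mitochondrial UMIs) were clustered with scanpy 1.11.5 (2000 variable genes, 30 components, 15 neighbors, Leiden resolution 1) without the pathway genes. Plate clusters with fibroblast or keratinocyte markers were removed (261 and 73 wells). Prox1 was counted in 98.5% and 98.6% of these wells, and their median depth was 0.120 and 0.601 of the plate median. Some may therefore have been LECs. The removal was uneven, leaving 294 of 378 wells in Tie1fl/fl Cre- plate 1 and 359 of 376 in Tie1-deleted plate 2. The choice of variable genes and the rule for 10x LEC clusters were set on the data. For each plate the LEC wells were added up gene by gene, and these sums were tested in 1 edgeR 4.0.16 fit (R 4.3.3) of all 8 plates with TMM factors, filterByExpr, the quasi-likelihood test, and Benjamini-Hochberg adjustment over 19885 genes. The edgeR steps alone were also run on simulated counts, as a check of the code and not of the calls given here. DESeq2 1.42.0 and limma 3.58.1 (log2 of mean CPM per cell, pseudocount 1) were alternatives. CPM of the LEC sum of a plate are counts scaled by its total over the tested genes times its TMM factor (0.952 to 1.06). CPM of a class and of the 10x cells are plain counts scaled by their own total. TPM also use exon length. The 10x ratios are of summed UMIs, with 95% exact intervals. Scrublet marked 0.611% and 0.0675% of cells, too few to have worked, so no doublets were removed, and 5 cell barcodes occurred in both libraries.

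Values per plate are given for the 3 highest and 3 lowest fold changes of each deletion among genes of at least 10 CPM and for Foxo1, Foxo3, Pik3ca, Pik3r1, Akt1, Irs2, and Pik3ip1; 10x values are given for the 5 highest and 5 lowest ratios. Others described by plate were chosen after their values were seen. The genes and lists were chosen with earlier results of these data known.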

Additional observations from a re-analysis of the deposited data

How the results depend on the processing

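With no filter on low counts, DESeq2, and limma on the mean CPM per cell, the genes called were 264, 164, and 1 in Tie1 deletion, 1180, 1029, and 448 in Tie1/-2 deletion, 638, 444, and 81 for the difference between the deletions, and 1052, 882, and 334 for their average, against 0, 231, 28, and 185. Capillary-like LECs alone gave 27 in Tie1/-2 deletion, 0 for the difference, and 27 for the average. The difference count was 14 with the table layout as a term, 17 with no cluster removed, and 16 at Leiden resolution 2.0. Leaving out 1 plate at a time gave 77 to 217 in Tie1/-2 deletion (77 without Tie1fl/fl Tie2fl/fl Cre- plate 3, 109 without plate 4, and 128 without Tie1/-2-deleted plate 2), 2 to 18 for the difference, and 52 to 150 for the average. The average was under 100 without Tie1fl/fl Cre- plate 2 (96), Tie1fl/fl Tie2fl/fl Cre- plate 3 (73) or 4 (88), or Tie1-deleted plate 1 (52) or 2 (59). The cause was not tested.

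Of the 39 pathway genes, 3 were called in Tie1/-2 deletion and 3 in the average with no filter, where 1180 and 1052 of 30299 genes were. DESeq2 called 2 and 2, with 1029 of 17957 and 882 of 17571 genes called. With the table layout as a term it was 1 and 1, with 241 and 185 of 19885 genes called. Limma called 1 and 1 of the 37 that it tested, with 448 and 334 of 14226 genes called. Txnip in Tie1/-2 deletion ranged from -1.18 to -0.83 on the log2 scale, with adjusted p from 0.0019 to 0.49 over edgeR, DESeq2, and limma settings. In Ang2 Ab against IgG with at most 5% mitochondrial UMIs, 1 of 34 pathway genes was past 1.5-fold. Of 10054 genes, 377 were past it higher and 380 lower. In capillary-like LECs alone it was 4 of 32, where 7.78% of genes were. A setting added after seeing the data, without the cluster with 2 of 8 LEC markers, gave 3 of 35. There 396 of 10596 genes were past the fold higher and 426 lower.

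Of 1436 fold changes recomputed for 20 genes, 1316 kept their direction and side of the threshold, 82 changed sign with no call in either fit, 15 gained a call, and 23 lost one, all of Prr5. None reversed while called. Counted by gene, 14 of the 20 changed sign in at least 1 setting in Tie1 deletion. In Tie1/-2 deletion, in the difference, and in the average, 9 of the 20 did so each. Plates with the same number in the Tie1fl/fl strain also share the sex and the table layout. Nothing in the labels ties them to the same animals. Their deviations from the genotype means correlated at 0.32 across 9784 genes. For plates of the same layout in the Tie1fl/fl Tie2fl/fl strain the correlation was 0.31. A replicate block was fitted for the Tie1fl/fl strain alone. It paired no plates of the Tie1fl/fl Tie2fl/fl strain, so its Tie1/-2 results do not test pairing there. With the block, 0 of the 39 were called in any comparison. Txnip in Tie1/-2 deletion had an edgeR adjusted p of 0.055, and 202 genes were called in that comparison. The call of Prr5 in the average was lost (edgeR adjusted p = 0.060).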

Other observations

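Levels of some pathway genes differed between the plates and the IgG droplet library beyond the spread of the plates. Cited2, a transcriptional coregulator, was at 0.175 to 6.88 CPM in the 4 Cre- plates and 40.5 CPM in IgG LECs. Sesn3 was at 1.78 to 3.45 CPM and 29.0 CPM, and Cdkn1b at 23.0 to 61.7 CPM and 147.2 CPM. Txnip went the other way, at 2045 to 2717 CPM and 685.7 CPM. Order within families differed too. Pik3r2 was at 60.5 to 88.7 CPM and 7.39 CPM, in IgG LECs below Pik3r1 (51.2 CPM), Pik3r3 (16.9 CPM), and Pik3ip1 (8.59 CPM). Pik3cb, at 9.52 CPM in IgG LECs, was above Pik3cg (3.61 CPM) and Pik3cd (2.52 CPM), both on few UMIs. Pik3ca was again the highest catalytic gene, and the orders of the FoxO factors and of Akt1 and Akt2 were the same. The assays, mouse strains, ages, and gene annotations differ together here and cannot be told apart.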
